A study of Mus musculus with 4 samples.

Results

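Wif1, Sfrp1, Sfrp2, Sfrp5, Frzb, Dkk2 and Dkk3 encode secreted antagonists of Wnt signalling, and they are described here in spatial transcriptomes of the mouse posterior eye. They were taken by gene symbol, and each of the 7 symbols matched 1 of the 32285 genes in the matrices, of which 17463 had at least 1 UMI. A UMI (unique molecular identifier) marks 1 captured RNA molecule. Levels are given as CPM, the UMIs of a gene per 1000000 UMIs of all genes in the same spots. They are not divided by gene length, because each captured molecule gives 1 UMI.

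The study delivered Wif1 to C57BL/6J mouse retinas with the viral vector AAV2/2, under the CMV promoter, which is of viral origin and not specific to a cell type. Its design names a Wif1-HA vector, a Wif1-HA-IRES-GFP vector and an IRES-GFP control vector, and retinas of wild-type controls and of time points of 2 and 4 weeks. The data used here are 4 Visium capture frames with cryosections of fresh-frozen posterior eyes, 1 library a frame, titled as biological replicates 1 to 4. All 4 carry the same treatment label, "Naive+AAV2/2", so no frame could be assigned to the control, 2-week or 4-week condition and no treatment comparison was made. Nothing else in the labels says which animals lie on a frame, so p-values measure the spread between frames. No feature is named after a vector, HA or GFP, so RNA of the mouse Wif1 gene and of the vector's Wif1 cannot be told apart. Whether RNA of the vector is counted under Wif1 at all was not tested. The Wif1 levels below are therefore not a measure of expression from the vector.

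Wnt proteins are secreted signals that bind frizzled receptors and the coreceptors Lrp5 and Lrp6 on the cell surface. Wif1 and the secreted frizzled-related proteins, which include Sfrp1, Sfrp2, Sfrp5 and Frzb, bind Wnt proteins outside the cell, while Dkk2 binds the coreceptors. Dkk3 is a divergent Dickkopf protein whose action on Wnt signalling is less settled. In the eye, Wnt signalling is known for its part in retinal vessel growth and in the development of the pigment epithelium and the ciliary margin.

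The 7 genes lie on 6 chromosomes, and none overlaps another gene in the RefSeq annotation of GRCm38.p6 (mm10). Wif1 (ENSMUSG00000020218) spans chr10:121034004-121100642, Sfrp1 spans chr8:23411383-23449632 and Sfrp2 spans chr3:83765750-83774314. Frzb spans chr2:80411970-80447396, Dkk2 spans chr3:132085266-132180304, Dkk3 spans chr7:112116019-112159482 and Sfrp5 spans chr19:42197971-42202252. Promoter windows, 250 bases before to 50 after an annotated start, were given in RefSeq for 5 of the 7. The window of Wif1 is shown because it precedes the mouse gene whose coding sequence the vector carries, and that of Sfrp2 because this gene led the fibrous tissue described below. They are Wif1 chr10:121033754-121034053, plus strand, and Sfrp2 chr3:83766071-83766370, plus strand.
Wif1: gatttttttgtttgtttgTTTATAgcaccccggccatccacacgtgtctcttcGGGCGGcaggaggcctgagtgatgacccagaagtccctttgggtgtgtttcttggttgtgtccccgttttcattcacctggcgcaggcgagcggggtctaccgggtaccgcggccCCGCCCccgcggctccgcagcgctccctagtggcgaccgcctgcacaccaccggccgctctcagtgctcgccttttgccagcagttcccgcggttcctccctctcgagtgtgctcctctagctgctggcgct
Sfrp2: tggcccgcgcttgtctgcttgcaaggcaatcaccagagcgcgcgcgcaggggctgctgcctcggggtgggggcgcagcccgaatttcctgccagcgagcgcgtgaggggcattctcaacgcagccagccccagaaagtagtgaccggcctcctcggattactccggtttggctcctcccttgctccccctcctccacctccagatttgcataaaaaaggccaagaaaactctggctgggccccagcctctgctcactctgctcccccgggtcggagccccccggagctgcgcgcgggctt
Capitals mark matches on either strand. The letters searched were TATAAA (the core of a TATA box), GGGCGG (the core of a GC box), and, for the TCF and LEF factors of the Wnt pathway, CTTTGA as well as CTTTGT. The Wif1 window held 1 TATAAA on the minus strand and 2 GGGCGG, 1 on each strand, and the Sfrp2 window held none of the 4. The only TCF and LEF cores among the 5 windows were a CTTTGA in Frzb, 95 bases before the start, and a CTTTGT in Dkk2, 80 bases before it. Of 32851 windows of the same length, 16.0% held CTTTGA and 18.7% held CTTTGT on either strand, while 13.6% held the TATA core and 35.7% the GC core. A match describes the letters and says nothing of binding. The GC content was 63.0% in the Wif1 window and 66.0% in the Sfrp2 window, against a median of 52.67% over all windows.

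The frames held 1056 to 1243 spots over tissue and 674029 to 1066633 UMIs, with 430 to 630.5 UMIs in the median spot. A spot is a small area that can hold several cells, so fewer cells of a type and less RNA per cell cannot be told apart in any level below. The 2458 spot barcodes are position codes of the array, and 1271 of them occur in more than 1 frame. Spots were grouped into regions by clustering on 147 marker genes that do not include the 7 antagonists. This placed 2833 of 4603 spots, the others being too shallow. Although the label gives the tissue as retina, spots led by fibrous, muscle, keratin, myelin and pigment genes were present in addition to the retinal layers. No region led by Müller glia genes formed.

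Dkk3 was the antagonist with the most UMIs in every frame. It had 162, 208, 141 and 97 UMIs in frames 1 to 4, which is 180.8 (95% exact Poisson interval 154.1 to 210.9), 195.0 (169.4 to 223.4), 159.2 (134.0 to 187.8) and 143.9 CPM (116.7 to 175.6). Its share of the UMIs of all 7 genes was 51.05% ± 0.657 (SD, n = 4), with a range of 50.61 to 52.03%. The share varied little between frames, while the summed level of the 7 genes lay between 283.4 and 385.3 CPM.

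Sfrp2, which binds Wnt proteins, was the second, with 90, 84, 56 and 36 UMIs. These are 100.5 (80.78 to 123.5), 78.75 (62.82 to 97.5), 63.24 (47.77 to 82.13) and 53.41 CPM (37.41 to 73.94). Sfrp1 had 38, 71, 57 and 41 UMIs, or 42.42 (30.02 to 58.22), 66.56 (51.99 to 83.96), 64.37 (48.76 to 83.4) and 60.83 CPM (43.65 to 82.52). The order of Sfrp1 and Sfrp2 was not the same in all frames, and over frames Sfrp2 averaged 73.97 ± 20.53 CPM and Sfrp1 58.55 ± 11.01 CPM (SD, n = 4), a difference within their spread.

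Wif1, the gene carried by the vector, was scarce. It had 7, 31, 9 and 11 UMIs, which is 7.81 (3.14 to 16.1), 29.1 (19.75 to 41.25), 10.2 (4.65 to 19.29) and 16.3 CPM (8.15 to 29.2). Frame 2 was the highest, and its interval lay above those of frames 1 and 3 but overlapped that of frame 4. This rested on 1 spot with 13 UMIs: without it, a setting added after the data had been seen, frame 2 had 18 UMIs, or 16.9 CPM (10.02 to 26.73), and its interval overlapped those of all other frames. The mean was 15.84 ± 9.52 CPM (SD, n = 4), from 58 UMIs in 41 spots, and 12.8 ± 4.51 CPM without that spot.

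Frzb, another frizzled-related protein, had 16, 12, 1 and 3 UMIs, or 17.9, 11.2, 1.13 and 4.45 CPM. Frames 1 and 2 were above frames 3 and 4. The interval of frame 1 (10.21 to 29.0 CPM) did not reach that of frame 3 (0.0286 to 6.29 CPM). In frame 1, however, 1 spot held 5 of the 16 Frzb UMIs and another held 3, and the frames were not compared without them. Sfrp5 had 6, 4, 7 and 2 UMIs, a mean of 5.33 ± 2.35 CPM. Dkk2 had 0, 1, 0 and 1 UMI. A count of 0 is taken here and below to allow up to 3 UMIs. This is 3.35 and 3.39 CPM in frames 1 and 3, where the 95% exact Poisson intervals reach 4.12 and 4.17 CPM. All intervals cover counting error only.

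**Figure D1:**
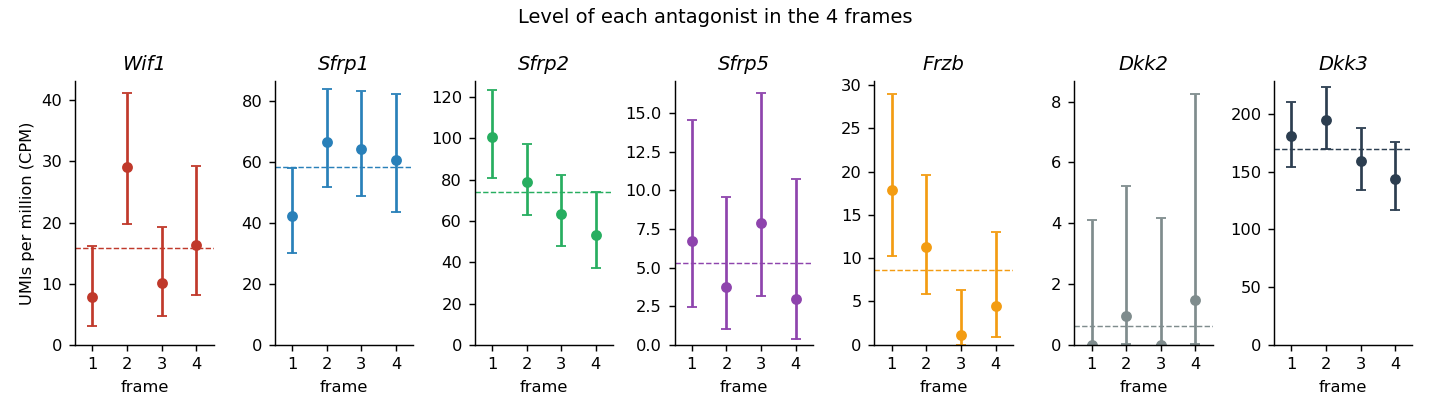
Level of each antagonist in CPM (vertical axes, each on its own scale and starting at 0) in frames 1 to 4 (horizontal axes); points are single frames, bars are 95% exact Poisson intervals and dashed lines are means over frames. Dkk3 lies between 143.9 and 195.0 CPM in all frames, while Wif1 lies between 7.81 and 29.1 CPM with frame 2 highest.

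Regions are named by the marker genes that lead them. The photoreceptor region (1030 spots) was led by rod and cone genes such as Gnat2 and Pde6b, the inner nuclear region (288 spots) by the bipolar genes Vsx1, Cabp5 and Grm6, and the ganglion region (274 spots) by Pou4f1, Nrn1 and Nefh. The fibrous region (277 spots) was led by Dcn and collagen genes, the muscle region (97) by Myl1 and Ckm, and the pigmented region (354) by 2 clusters described below. A region of 366 spots was led by Ptprc and the complement genes C1qa, C1qb and C1qc, and is called the C1q-led region. Regions were mixed. Of all marker UMIs, photoreceptor genes gave 67.9% in the fibrous region, in which fibrous genes gave 5.79%, and ganglion genes gave 42.1% in the C1q-led region, in which immune genes gave 6.96%.

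Dkk3 supplied most of the 7 genes' UMIs in the inner retina. In the inner nuclear region its mean share over frames was 78.0% ± 5.94 (SD, n = 4), from 128 of 159 UMIs, and it led in 4 of 4 frames. In the ganglion region the share was 60.9% ± 6.83, also with the lead in 4 of 4 frames, and in the C1q-led region it was 53.8% ± 18.0 with the lead in 3 of 4. In frame 2 of the C1q-led region Wif1 led, with 15 UMIs to 12 of Dkk3, 13 of the 15 in the 1 spot named above. In the photoreceptor region the share was 42.8% ± 18.7 and Dkk3 led in only 2 of 4 frames. Without frame 2, Sfrp2 led that region, with 30 UMIs to 27 of Dkk3.

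Outside the neural retina the leading gene differed between tissues. Sfrp2 gave 59.0% ± 12.2 of the 7 genes' UMIs in the fibrous region and led in 4 of 4 frames. It led in 3 of 4 frames of the muscle region, in which the 7 genes had only 26 UMIs in all. Dkk3 gave 60.1% ± 10.6 in the pigmented region and led in 4 of 4 frames. When spots were instead given to the marker class with the highest mean level, without clustering, Sfrp1 led the pigmented class and the share of Dkk3 there was 33.5%. In the epithelial region (62 spots, led by keratin genes) and the myelin region (85 spots) the 7 genes had 13 and 11 UMIs, too few to name a leading gene.

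**Figure D2:**
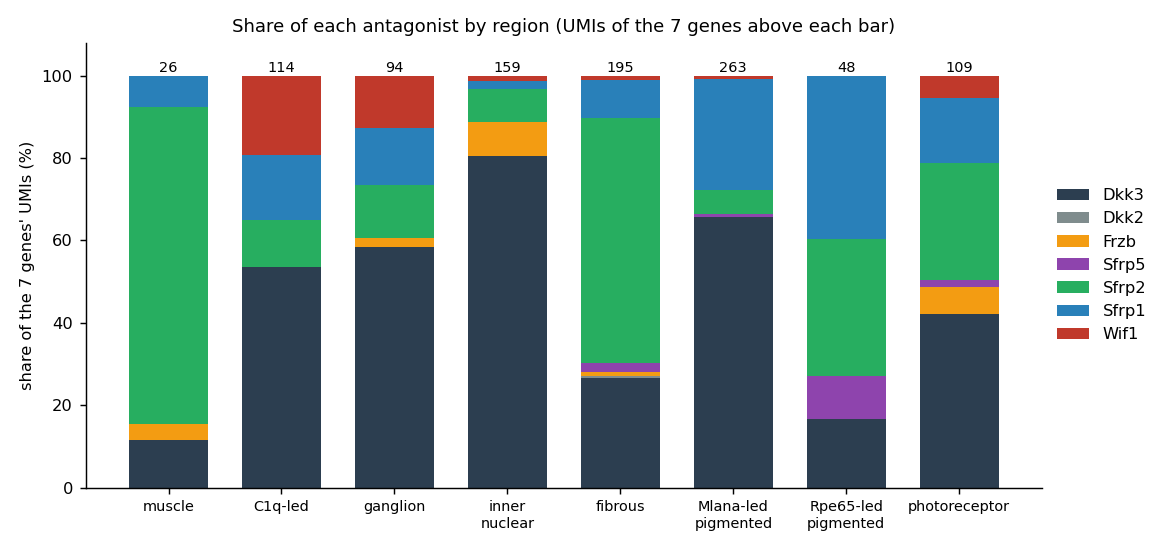
Share of each antagonist in the UMIs of all 7 genes (vertical axis, percent) in 8 regions (horizontal axis), pooled over frames; the number above each bar is the UMIs of the 7 genes in that region. Dkk3 fills most of the inner nuclear bar, Sfrp2 most of the fibrous and muscle bars, and Wif1 is largest in the C1q-led and ganglion bars.

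Levels were compared between regions on UMIs summed per region and frame, with edgeR's quasi-likelihood test, frame as a block and p-values adjusted by the Benjamini-Hochberg method over all 10189 genes tested. Wif1, Sfrp1, Sfrp2, Frzb and Dkk3 had enough UMIs to be tested, and Sfrp5 and Dkk2 had not. Fold changes are log2 values with standard errors under TMM scaling. TMM moved all genes together: the median gene lay 0.17 to 0.40 below 0 in the comparisons of the inner nuclear, ganglion, C1q-led, fibrous and pigmented regions with the photoreceptor region and 1.15 below 0 in that of muscle. Values with total UMIs as the scale, which was added after this was seen, are given where a call differs.

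Dkk3 was highest in the pigmented region, where it had 511.6, 454.3, 716.0 and 1467 CPM in frames 1 to 4, against 36.7, 81.6, 41.5 and 40.04 CPM in the photoreceptor region. The groups did not overlap, and the level was higher in 4 of 4 frames by a log2 fold change of 3.33 ± 0.383 (edgeR, adjusted p = 2.0e-15). Sfrp1 had 331.1, 297.0, 256.5 and 523.9 CPM in the pigmented region, against 9.17, 8.59, 30.2 and 25.02 CPM in the photoreceptor region. It too was higher in 4 of 4 frames without overlap, by 3.66 ± 0.524 (edgeR, adjusted p = 4.4e-10). Dkk3 and Sfrp1 were 2 of the 5 members tested, and 14.2% of all genes tested were called in this comparison. Sfrp2 had 105.3, 113.6, 117.6 and 0 CPM in the pigmented region, against 41.3, 4.29, 52.9 and 35.0 CPM in the photoreceptor region, and did not pass with TMM (1.16 ± 0.523, edgeR adjusted p = 0.122). It passed with total UMIs (1.56 ± 0.511, edgeR adjusted p = 0.0219), where 3 of 5 members and 13.1% of all genes were called. The call for Dkk3 was lost when spots went to their highest marker class (1.25, edgeR adjusted p = 0.148), whereas that for Sfrp1 held in all 13 alternatives.

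The pigmented region consisted of 2 clusters. One, of 156 spots, was led by Fbln1, Trpm1 and the melanocyte gene Mlana, and the other, of 198 spots, by Lrat, Rdh5 and Rpe65, genes of the retinoid cycle in the pigment epithelium. Müller glia genes gave 40.4% of marker UMIs in the Mlana-led cluster and 34.9% in the Rpe65-led one, which also held 34.0% from photoreceptor genes. Car14 and Rlbp1 of the Müller glia class were themselves among the 10 leading genes of the Rpe65-led cluster. The shares of this class are therefore not a measure of Müller glia in these clusters. Their comparison was added after the data had been seen. Dkk3 had 639.5, 931.8, 1245 and 2348 CPM in the Mlana-led cluster, against 67.4, 0, 71.2 and 451.2 CPM in the Rpe65-led cluster. All Mlana-led values were above all Rpe65-led values, with 173 UMIs to 8, and the log2 fold change was 3.90 ± 0.540 (edgeR, adjusted p = 3.1e-10). It was the 1 of 5 members called, beside 2.56% of all genes. Sfrp1 had 426.3, 376.3, 389.0 and 782.6 CPM in the Mlana-led cluster, against 0, 221.6, 94.9 and 225.6 CPM in the Rpe65-led cluster. Those groups did not overlap either, but the difference did not pass (1.64 ± 0.554, edgeR adjusted p = 0.0895). The Rpe65-led cluster had Sfrp1 as its pooled leader, with 19 of 48 UMIs, although Sfrp1 led alone in only 1 of 4 frames. Frame 4 rests on 13 spots of each cluster.

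The inner nuclear region had the second highest Dkk3 level among the regions with at least 10 spots in all 4 frames. It had 382.7, 341.6, 213.0 and 480.6 CPM there, all above the 36.7 to 81.6 CPM of the photoreceptor region. The log2 fold change was 2.23 ± 0.392 (edgeR, adjusted p = 1.7e-06), the 1 call among 5 members tested where 10.1% of all genes were called. It held in all 13 alternatives, with values of 1.89 to 2.72. The region's own mixture is wide: Müller glia genes gave 38.7% of its marker UMIs, photoreceptor genes 34.8% and inner nuclear genes 11.4%, and the part of each in the Dkk3 level was not tested. Frame 4 contributed 18 spots and 10 Dkk3 UMIs.

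The ganglion region, with the cell bodies of the retina's output neurons, had less Dkk3 than the inner nuclear region. Its levels were 114.4, 152.6, 87.4 and 80.0 CPM, all below the 213.0 to 480.6 CPM of the inner nuclear region, and the log2 fold change was -1.54 ± 0.386 (edgeR, adjusted p = 0.0042). This was the 1 of 5 members called, with 3.82% of all genes called. The call was lost without frame 1 (-1.23, edgeR adjusted p = 0.156), without frame 2 (-1.57, adjusted p = 0.0606), and under 3 other ways of drawing the regions, where the fold lay between -1.01 and -1.29. Against the photoreceptor region, Dkk3 was higher in the ganglion region in 4 of 4 frames by 0.69 ± 0.417, which did not pass (edgeR, adjusted p = 0.244), and by 1.05 ± 0.395 with total UMIs, which did (edgeR, adjusted p = 0.0368). None of the 5 members was called there with TMM, while 22.7% of all genes were, and with total UMIs Dkk3 was the 1 member called, with 23.2% of all genes.

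Sfrp2 had its highest mean level in the fibrous region. It had 439.4, 275.0, 201.0 and 248.3 CPM there, against 41.3, 4.29, 52.9 and 35.0 CPM in the photoreceptor region. The groups did not overlap, and the log2 fold change was 2.65 ± 0.457 (edgeR, adjusted p = 1.2e-05), the 1 call among 5 members where 1.13% of all genes were called. It held in all 13 alternatives, at 2.12 to 3.28. Dkk3 was also higher in 4 of 4 frames, with 119.8, 178.7, 67.0 and 158.0 CPM in the fibrous region, but did not pass under either scale (0.96 ± 0.424, edgeR adjusted p = 0.308, and 0.0507 with total UMIs).

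Between the fibrous and the pigmented region, 3 of 5 members were called, with 3.61% of all genes. Sfrp1 was lower in the fibrous region, with 9.99, 75.6, 38.3 and 45.1 CPM against 256.5 to 523.9 CPM in the pigmented region (log2 fold change -2.79 ± 0.526, edgeR adjusted p = 2.3e-05). Dkk3 was lower as well (-2.37 ± 0.382, edgeR adjusted p = 2.5e-07). Sfrp2 was higher in the fibrous region (1.48 ± 0.463, edgeR adjusted p = 0.0405), but this call was lost in 8 of 13 alternatives, including each that left out a frame. With spots given to their highest marker class, none of the 3 calls held and the sign of Dkk3 turned (0.52, edgeR adjusted p = 0.854).

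The muscle region was compared after the data had been seen. Sfrp2 had 583.7, 251.8, 0 and 260.5 CPM there, against 41.3, 4.29, 52.9 and 35.0 CPM in the photoreceptor region, so that it was higher in 3 of 4 frames and absent from frame 3, where 0 UMIs allow up to 139.7 CPM. The log2 fold change was 1.86 ± 0.575 (edgeR, adjusted p = 0.0264), the 1 call among 5 members, with 6.48% of all genes called, and it was lost without frame 1 or frame 2 (adjusted p = 0.39 and 0.241). Photoreceptor genes gave 58.1% of marker UMIs in the muscle region. Sfrp2 did not differ detectably between the fibrous and the muscle region (290.9 ± 103.6 against 274.0 ± 239.2 CPM; 0.79 ± 0.499, edgeR adjusted p = 0.437), and none of the 5 members was called in that comparison, in which 0.697% of all genes were.

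**Figure D3:**
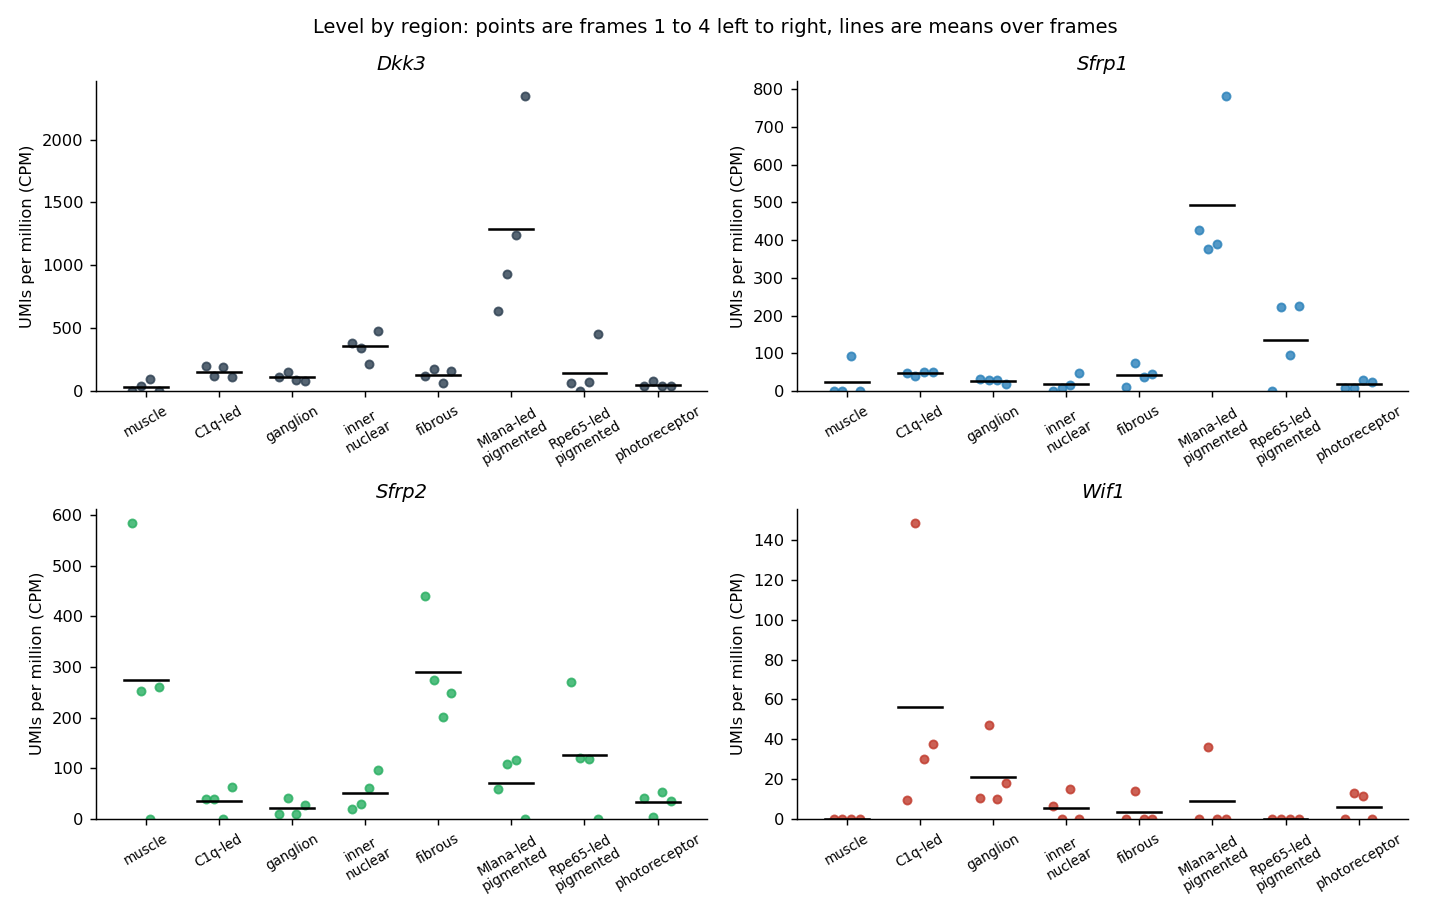
Levels of Dkk3, Sfrp1, Sfrp2 and Wif1 in CPM (vertical axes, each on its own scale from 0) by region (horizontal axes); points are frames 1 to 4 left to right within a region and lines are means over frames. Dkk3 and Sfrp1 stand highest in the Mlana-led cluster in all 4 frames, Sfrp2 has its highest means in the fibrous and muscle regions, and Wif1 is highest in 1 frame of the C1q-led region.

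The orders below cover the 7 regions with at least 10 spots in all 4 frames. The epithelial and myelin regions, with 3 such frames each, are left out: Dkk3 averaged 117.6 ± 104.7 and 267.6 ± 419.7 CPM in them, and Wif1 45.05 ± 39.02 and 17.2 ± 29.8 CPM, from 2 and 1 Wif1 UMIs. Ordered by mean level over frames, Dkk3 ran 787.2 ± 466.9 CPM in the pigmented region, 354.5 ± 110.9 in the inner nuclear, 155.4 ± 46.3 in the C1q-led, 130.9 ± 49.1 in the fibrous, 108.6 ± 32.9 in the ganglion, 49.97 ± 21.2 in the photoreceptor and 33.8 ± 44.2 in the muscle region (SD, n = 4). The frames of the pigmented and inner nuclear regions overlapped, as did those of the C1q-led, fibrous and ganglion regions, whereas all inner nuclear values were above all C1q-led values. The ganglion and photoreceptor frames overlapped, as did the photoreceptor and muscle frames. For Sfrp1 the pigmented region, at 352.1 ± 118.5 CPM, stood above all others. The C1q-led region followed at 46.8 ± 4.96 and the fibrous at 42.3 ± 26.9, and then the ganglion (26.9 ± 6.13), muscle (23.3 ± 46.6), photoreceptor (18.2 ± 11.03) and inner nuclear regions (17.7 ± 21.2), with overlap between every pair of neighbours in this order below the pigmented region. For Sfrp2 the fibrous and muscle regions led, followed by the pigmented (84.1 ± 56.3), inner nuclear (51.6 ± 34.4), C1q-led (35.1 ± 25.9), photoreceptor (33.4 ± 20.8) and ganglion regions (22.0 ± 14.9), where again all neighbours overlapped. For Wif1 the order was C1q-led (56.4 ± 62.5, and 24.3 ± 12.1 without the spot of 13 UMIs), ganglion (21.2 ± 17.5), photoreceptor (6.05 ± 7.02), inner nuclear (5.45 ± 7.21), pigmented (4.37 ± 8.73), fibrous (3.44 ± 6.88) and muscle (0), and every pair of neighbours overlapped.

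Frzb, Sfrp5 and Dkk2 were too scarce for an order. Frzb had 13 of its 32 UMIs in the inner nuclear region, 8 in frame 1 and 5 in frame 2, and a mean of 22.5 ± 26.7 CPM there against 8.06 ± 10.2 CPM in the photoreceptor region, which did not pass (1.22 ± 0.953, edgeR adjusted p = 0.481). It had no UMI in the pigmented or the C1q-led region, which allows up to 10.2 and 7.78 CPM. Sfrp5 had 7 of its 19 UMIs in the pigmented region and 4 in the fibrous region, and none in the inner nuclear, ganglion or C1q-led region. The 2 Dkk2 UMIs lay in the fibrous region and in an unplaced spot.

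**Figure D4:**
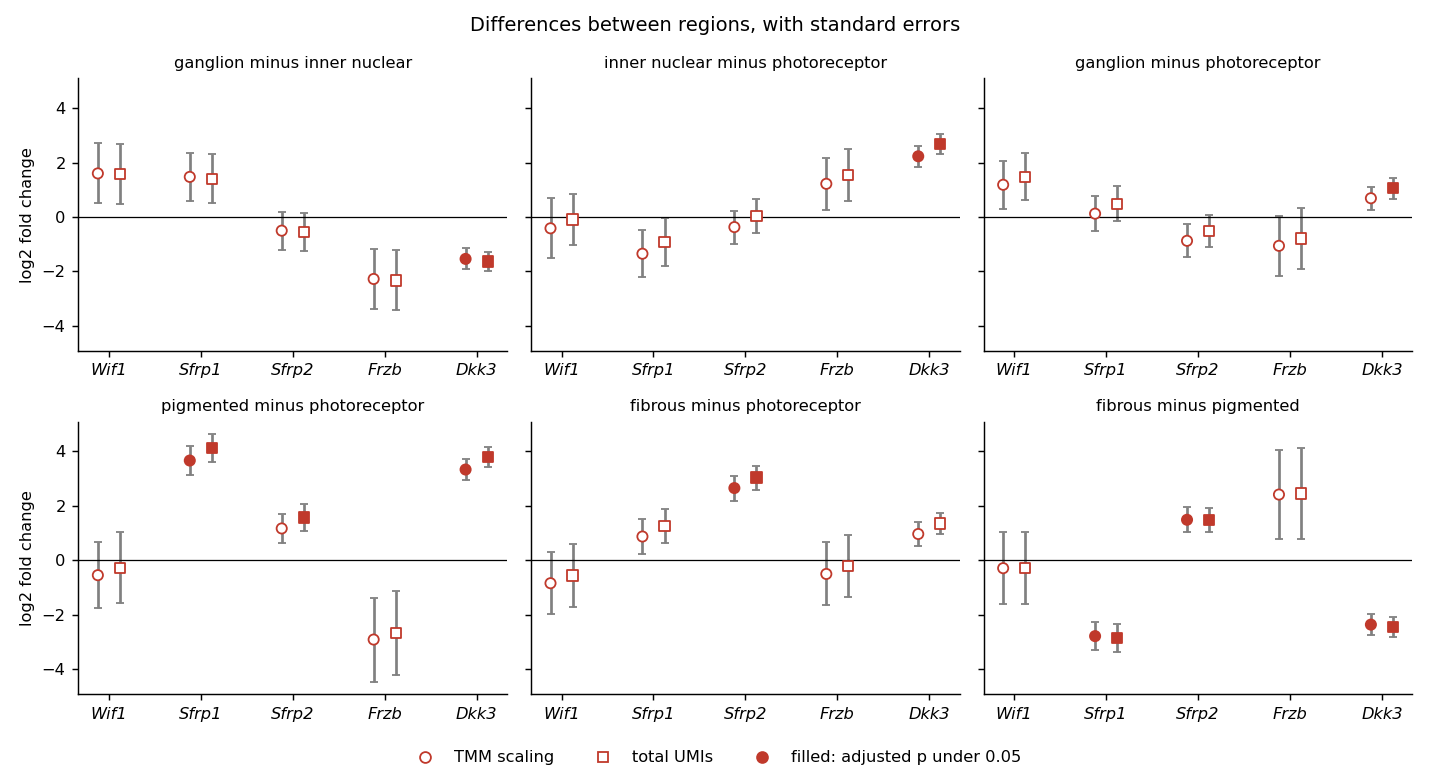
Log2 fold changes of the 5 tested antagonists (vertical axes) in the 6 main comparisons between regions; circles are TMM scaling, squares are total UMIs, bars are standard errors and filled symbols passed an adjusted p of 0.05. Dkk3 is filled in 4 of the 6 panels under TMM, Sfrp1 in both panels that involve the pigmented region, and Wif1 and Frzb in none.

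The C1q-led and ganglion regions held the most Wif1 UMIs. Of 58 UMIs, 22 lay in the C1q-led region and 12 in the ganglion region, against 6 in the photoreceptor region. The inner nuclear, pigmented, fibrous and epithelial regions had 2 each, the myelin region 1, and the unplaced spots 9. The 97 muscle spots had 0, which allows up to 38.6 CPM. The Wif1 level in the C1q-led region was 9.54, 148.4, 30.04 and 37.5 CPM, against 0, 12.9, 11.3 and 0 CPM in the photoreceptor region. The C1q-led level was higher in 4 of 4 frames, although the lowest C1q-led frame lay within the photoreceptor range. The log2 fold change was 2.41 ± 0.825 (edgeR, adjusted p = 0.0229). This comparison was added because Wif1 was seen to be highest there, so its p-value describes and does not test independently. Wif1 and Dkk3 were the 2 of 5 members called, with 19.8% of all genes.

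A single spot decided this value. Of the 41 spots with Wif1, 36 had 1 UMI, 3 had 2 and 1 had 3, while 1 spot of the C1q-led region in frame 2 had 13, or 22.4% of all Wif1 UMIs. Without it the C1q-led mean was 24.3 ± 12.1 CPM, against 56.4 ± 62.5 with it, and the difference from the photoreceptor region no longer passed (1.5, edgeR adjusted p = 0.248). It also missed without frame 4 (2.38, edgeR adjusted p = 0.0591). The spot had 2434 UMIs, against medians of 855 in the C1q-led region and 1463 in Wif1-positive spots, and its marker UMIs were 31.2% immune, 31.2% Müller glia, 20.8% ganglion and 10.4% vessel. It held 12 UMIs of Uhrf2, a ubiquitin ligase gene, and 31 of Fau, a gene of a ribosomal protein precursor, each the highest count of that gene in any spot. Among 1380 genes with 50 to 70 UMIs in all, 19 had as many as 13 in 1 spot.

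In the ganglion region, Wif1 had 10.4, 46.9, 9.71 and 17.8 CPM, against 6.60, 0, 15.2 and 0 CPM in the inner nuclear region and 0, 12.9, 11.3 and 0 CPM in the photoreceptor region. The ranges overlapped in both cases. Neither difference passed (1.60 ± 1.10, edgeR adjusted p = 0.543, and 1.18 ± 0.879, adjusted p = 0.362). The difference from the inner nuclear region was 0.24 with Leiden resolution 1 (edgeR, adjusted p = 0.954) and 0.04 when spots with 10 marker UMIs were admitted (adjusted p = 0.997). The difference from the photoreceptor region passed when spots went to their highest marker class (2.43, edgeR adjusted p = 0.0371) and when those with 10 marker UMIs were admitted (3.01, adjusted p = 0.0183). The share of ganglion spots with a Wif1 UMI was 1.75 to 6.32% by frame at a median of 1508 UMIs per spot, and that of photoreceptor spots was 0 to 1.20% at a median of 743.5 UMIs.

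Dkk3 in the C1q-led region had 200.3, 118.7, 190.2 and 112.4 CPM, above the photoreceptor values in every frame and without overlap (1.27 ± 0.412, edgeR adjusted p = 0.0154). This call was lost without frame 3 (1.14, edgeR adjusted p = 0.0969).

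**Figure D5:**
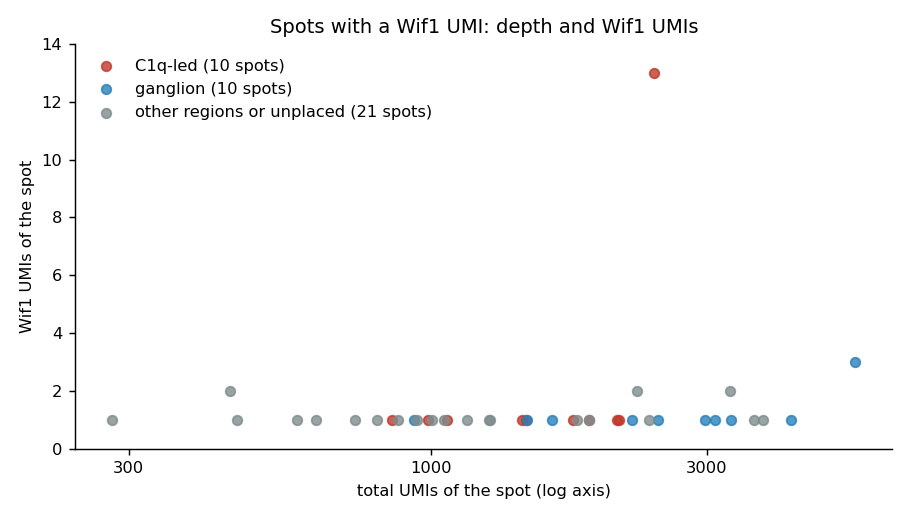
The 41 spots with at least 1 Wif1 UMI, by total UMIs of the spot (horizontal log axis) and Wif1 UMIs of the spot (vertical axis); colours mark the C1q-led region, the ganglion region and all other spots. 1 C1q-led spot holds 13 Wif1 UMIs, and the other 40 hold 1 to 3.

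Genes co-detected with Wif1 were sought by comparing Wif1-positive with Wif1-negative spots. Only 1 frame had the 3 positive spots needed within the inner nuclear and ganglion regions, so all spots over tissue were used. Positive spots were deeper, with a median of 1463 UMIs against 554 in negative spots, and differed in marker genes. Ganglion marker genes summed to 10720 ± 2774 CPM in positive spots and 6429 ± 994 CPM in negative spots (SD, n = 4), higher in 4 of 4 frames. Photoreceptor markers summed to 12100 ± 11840 CPM in positive spots and 32160 ± 3009 CPM in negative spots, lower in 4 of 4 frames. The part of depth and region in the differences below was not tested over all spots.

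With TMM, 138 of 10801 genes (1.28%) were called, 1 higher and 137 lower in positive spots, and the median gene lay 0.99 below 0. With total UMIs, 34 genes (0.315%) were called, 11 higher and 23 lower, with the median gene at -0.08. Chrm1, a muscarinic acetylcholine receptor gene, was the 1 gene higher under TMM. It had 8 UMIs in 3 of the 41 positive spots (107.7 CPM) and 24 UMIs in the 4562 negative spots (6.96 CPM), a log2 fold change of 3.07 ± 0.863 (edgeR, adjusted p = 0.0351), higher in 3 of 4 frames. One of those spots held 5 of the 8 UMIs.

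The 9 genes next in order of p-value with a positive fold did not pass with TMM, with folds of 2.21 to 3.04. They were Gm45051, a predicted gene, Crtc1, a coactivator of the factor CREB, Nod1, a sensor of bacterial cell walls, Mcm4, a subunit of the replication helicase, Gmfb, a glia maturation factor, Pcbd1, of pterin metabolism, Tnfrsf11a, the receptor RANK, Arhgap27, a GTPase regulator, and Trappc2, of vesicle transport. All but Arhgap27 passed with total UMIs. Mcm4, with 5 UMIs in positive and 16 in negative spots, reached the 20 UMIs needed only with those of positive spots. Its pass is therefore no support. Counts of the 9 genes were 5 to 14 UMIs in positive spots, often in few of them. In 1 spot each lay 9 of 10 Crtc1 UMIs, 5 of 6 of Tnfrsf11a, 5 of 9 of Gm45051 and 6 of 14 of Nod1. Crtc1 was higher in 1 of 4 frames. Gmfb had 10 UMIs in 4 positive spots, with 6 of these UMIs in 1 spot. It passed with total UMIs also among the inner nuclear, ganglion and C1q-led spots alone (3.73, edgeR adjusted p = 0.0304). Actb, the cytoplasmic actin gene, was picked after its values were seen, as a gene higher in 4 of 4 frames. It had 526 UMIs in 38 of 41 positive spots (7081 CPM), against 3090 CPM in negative spots, and 1 positive spot held 103 of the 526. Actb passed with total UMIs (0.98 ± 0.239, edgeR adjusted p = 0.0204) but not with TMM (-0.05, adjusted p = 0.966).

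Among the 5 genes with a negative fold and the lowest p-values were Gm42418, a predicted gene, Aipl1, a photoreceptor chaperone, Ptgds, a prostaglandin synthase, and Nr2e3, a nuclear receptor of rods. Aipl1 had 2544 CPM in positive spots and 7057 CPM in negative spots, lower in 4 of 4 frames (-2.71 ± 0.309, edgeR adjusted p = 7.95e-15). Ptgds and Nr2e3 were likewise lower in 4 of 4 frames, with log2 fold changes of -3.03 and -2.80, and all 3 stayed past the threshold with total UMIs. Gm42418 was lower in 3 of 4 frames in CPM. It passed with TMM (-2.23) and did not pass with total UMIs (-1.21 ± 0.732, edgeR adjusted p = 0.754). Among inner nuclear, ganglion and C1q-led spots alone, Aipl1, Ptgds and Nr2e3 did not pass with total UMIs, at folds of -0.53 to -1.04 and an adjusted p of 0.77 each, while Gm42418 did (-2.02, edgeR adjusted p = 5.55e-14).

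Dkk3 was the antagonist most often seen in a spot with Wif1. It had a UMI in 9 of 41 positive spots (22.0%) and in 361 of 4562 negative spots (7.91%). After thinning each spot to 400 UMIs, which left 40 positive and 2890 negative spots, the shares were 7.5% and 5.09%. As a level, Dkk3 had 201.9 CPM in positive spots (95% interval 113.0 to 333.0) and 172.0 CPM in negative spots (158.4 to 186.4), and the intervals overlapped. Sfrp1 had 53.8 CPM in positive spots (14.7 to 137.9) and 58.9 CPM in negative spots, and Sfrp2 had 40.4 CPM in positive spots (8.33 to 118.0) and 76.3 CPM in negative spots. Sfrp5, Frzb and Dkk2 had no UMI in a positive spot, which carried 74288 UMIs in all.

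Genes of the rest of the Wnt pathway were read from 4 lists. Of 19 Wnt ligand genes none reached the 20 UMIs needed in the fit. Wnt5a had the most, with 20 UMIs over all spots, placed and unplaced. Of 17 other extracellular or membrane inhibitors 7 were tested. Tpbg, a membrane inhibitor of Wnt signalling, was higher in the inner nuclear region (125.1 ± 22.9 CPM) than in the photoreceptor region (12.1 ± 7.93 CPM; 2.77 ± 0.646, edgeR adjusted p = 0.000663). It was also lower in the ganglion region (24.6 ± 13.4 CPM) than in the inner nuclear region (-2.15 ± 0.649, edgeR adjusted p = 0.029), the same directions as Dkk3. Igfbp4, a secreted inhibitor that also binds insulin-like growth factors, was higher in the fibrous region (218.6 ± 81.5 CPM) than in the photoreceptor region (22.8 ± 7.27 CPM; 2.74 ± 0.501, edgeR adjusted p = 5.5e-05). Serpinf1, which encodes PEDF, was higher there too, at 130.2 ± 22.8 against 15.6 ± 11.2 CPM (2.58 ± 0.589, edgeR adjusted p = 0.00395). In the pigmented region Igfbp4 (110.5 ± 86.2 CPM) was higher than in the photoreceptor region, by 2.01 ± 0.541 (edgeR, adjusted p = 0.00329). Sostdc1, a secreted inhibitor of Wnt and BMP signals, was higher too (68.2 ± 26.0 against 8.68 ± 7.61 CPM), by 2.38 ± 0.820 (edgeR, adjusted p = 0.0307). However, Sostdc1 reached the 20 UMIs needed in the fit only with its 17 UMIs of the pigmented region, so its pass is no support.

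Of 18 receptor genes 10 were tested, and in the comparisons with the photoreceptor region each one called under TMM was lower. Lrp6, a coreceptor that Dkk2 binds, averaged 251.1 ± 49.7 CPM (inner nuclear), 241.0 ± 60.5 CPM (ganglion) and 299.8 ± 65.4 CPM (C1q-led). It averaged 611.8 ± 120.5 CPM in the photoreceptor region, and all 3 calls held with total UMIs. In the pigmented region Lrp6 had 301.9 ± 147.9 CPM (-1.32 ± 0.313, edgeR adjusted p = 0.000618). Fzd10, a frizzled receptor gene, had no UMI in the ganglion region, against 49.5 ± 21.6 CPM in the photoreceptor region, where 46 UMIs were seen. Against the photoreceptor region, 4 receptors were lower and 0 higher in the ganglion region under both scales, 4 of the 10 tested, with 22.7% (TMM) and 23.2% (total UMIs) of all genes called there. The median fold of the 10 was -0.91 with TMM, beside -0.23 over all genes. Kremen1, a receptor for some Dickkopf proteins counted among the inhibitors, was lower there with TMM (-2.37 ± 0.861, edgeR adjusted p = 0.0303). It did not pass with total UMIs (edgeR, adjusted p = 0.0769). Between the ganglion and the inner nuclear region the receptor genes called with TMM were Fzd5 and Fzd10, neither of which had a UMI in the ganglion region. The inner nuclear region had 2 receptors lower than the photoreceptor region with TMM and 1 with total UMIs, since Ryk passed with TMM (-0.79 ± 0.276, edgeR adjusted p = 0.0453) and not with total UMIs (adjusted p = 0.496), and 10.1% of all genes were called there with TMM. Pigmented against photoreceptor, 2 receptors were lower and 0 higher with TMM, but 1 lower and 3 higher with total UMIs, where 14.2% and 13.1% of all genes were called. Lgr4, a receptor that strengthens Wnt signals, was lower in the fibrous (95.3 ± 28.8 CPM) than in the pigmented region (294.5 ± 84.1 CPM; -1.43 ± 0.445, edgeR adjusted p = 0.0393). It was also higher in the Mlana-led than in the Rpe65-led cluster (1.87 ± 0.561, edgeR adjusted p = 0.0387).

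Of 10 Wnt target genes 6 were tested. In pigmented against photoreceptor spots 1 of the 6 was called with TMM, near the 14.2% of all genes called, and 2 of the 6 with total UMIs, beside 13.1% of all genes. In the other 9 comparisons between regions 0 were called with TMM. The 1 was Sp5, a transcription factor gene. It had 57.9 ± 41.4 CPM in the pigmented region and 4.49 ± 3.78 CPM in the photoreceptor region (2.63 ± 0.875, edgeR adjusted p = 0.0241). The median fold of the 6 targets in that comparison was 1.39, beside -0.40 over all genes. That of the 7 other inhibitors was 1.29. These inhibitors include Sostdc1 and Apcdd1, with 17 and 8 UMIs in the pigmented region. Both reached the UMIs needed in the fit only with those of the pigmented region. The filter thus favoured a high pigmented level for them, and the inhibitor median is no support for a higher level of that list.

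The genes whose levels ran most like those of an antagonist were ranked by Pearson's r of log2(CPM + 10) over 34 sums of a region in a frame, among 4862 genes. The sums share frames and depth, and r is given as a description. Dkk3 ran most like Rnaset2a (0.76), a ribonuclease gene, Ptprf (0.727), a receptor phosphatase gene, and Spon1 (0.711), which encodes a matrix protein. Sfrp1 ran most like Iqgap2 (0.83), Cd74 (0.807), the invariant chain of MHC class II and itself a marker gene, and Tns2 (0.747). Sfrp2 ran most like Mn1 (0.682), Rps21 (0.656) and Timp2 (0.649), an inhibitor of metalloproteinases. Wif1 ran most like Snap47 (0.698), Denr (0.632) and Efhd2 (0.597).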

How the data were processed

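The deposited files hold raw UMI counts per gene and spot, which the authors made with Space Ranger 2.0.0 per the file headers, on mm10 per the submitters' processing notes. Counts were used as deposited, over spots called as tissue, and spot positions were not used. The 7 members and all lists were chosen with earlier results of these data known.

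Spots with at least 20 marker UMIs were scaled to 10000, clipped at 10, reduced to 10 principal components and clustered (15 neighbours, Leiden resolution 0.6; scanpy 1.11.5, igraph 0.11.9, numpy 2.4.6, scipy 1.17.1, pandas 2.3.3, Python 3.11.15). Clusters were named by the marker class with the most genes among their 10 leading ones, at least 3 being needed. A leading gene needed 10 UMIs, a minimum picked after the names under none, 10 and 50 had been seen. With none, all 4603 spots kept their name, and with 50, 4444 did.

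UMIs summed per region and frame were tested in edgeR 4.0.16 (limma 3.58.1, R 4.3.3; quasi-likelihood, robust, TMM, frame as a block) in 1 joint fit over regions with at least 10 spots in at least 3 frames, on genes with at least 20 UMIs, without the marker genes, at an adjusted p of 0.05. The block was used because regions of a frame share its sections, and the deviations of its regions correlated at 0.00928 to 0.092. TMM was the main scaling, and that its factors moved with library size was seen only after the fit. Total-UMI scaling, the comparisons of the C1q-led and muscle regions and of the pigmented clusters, the settings without the spot richest in Wif1 and those with C1q-led spots were chosen after seeing the data. For Wif1-positive spots, the fit designed for the inner retina could not be run, as 1 frame had the spots needed and 3 were required, so the same test over all spots was reported in its place, with marker genes kept.

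Intervals are 95% exact Poisson or binomial and cover counting error only. A count of 0 allows up to 3 UMIs. Genes named were all 7 members, up to 3 genes per list and comparison that passed, the 10 genes with a positive and the 5 with a negative fold of lowest p in Wif1-positive spots, and the 3 of highest r for each member with at least 50 UMIs, among genes with at least 100. One gene that this rule names is not reported here. Promoter windows were taken from RefSeq (GRCm38.p6). Alternatives were DESeq2 1.42.0, filterByExpr with a minimum of 10, no filter, no block, total UMIs, leaving out each frame, 10 marker UMIs per spot, Leiden resolution 1 and the highest marker class without clustering. The test was tried on simulated data. Figures were drawn with matplotlib 3.10.9.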

Additional observations from a re-analysis of the deposited data

Results flagged for a closer look

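In 3 of the 27 groups of 4 frames examined, 1 frame stood apart from the other three, where chance gives about 1 in 20. Sfrp2 in the pigmented region was at 0.0 CPM in frame 4, which had 26 pigmented spots, against 105.3 to 117.6 CPM in the other frames. The 0 UMIs of frame 4 allow up to 157.2 CPM, which is above all of those values. Sfrp1 in the ganglion region was at 17.77 CPM in frame 4, against 29.14 to 31.2 CPM in the other frames, from 2 UMIs. Dkk3 in the photoreceptor region was at 81.6 CPM in frame 2, against 36.68 to 41.55 CPM in the other frames.

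The 1770 unplaced spots, with a median of 229.5 UMIs, entered no comparison between regions. They also held antagonist UMIs, above what a count of 0 allows. Pooled over frames, Dkk3 was at 142.2 CPM, Sfrp1 at 86.14 CPM, Sfrp2 at 54.09 CPM and Wif1 at 18.03 CPM there. No cause of these values was tested.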

How the results depend on the processing

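The calls of Dkk3 in the inner nuclear against the photoreceptor region, of Sfrp1 in the pigmented against the photoreceptor region and of Sfrp2 in the fibrous against the photoreceptor region held in all 13 alternatives. That of Dkk3 between the pigmented clusters held in all 7 run, which did not include other ways of drawing regions. The 1 value that reversed was Dkk3 in the fibrous against the pigmented region, at 0.52 with the highest marker class. The causes were not tested.

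The number of the 5 tested members called, leaving out 1 frame, was 0 to 1 for ganglion against inner nuclear, 1 to 2 for C1q-led against photoreceptor, 0 to 1 for muscle against photoreceptor and 2 each time for fibrous against pigmented. It was 0 for ganglion against inner nuclear with Leiden resolution 1 and with 10 marker UMIs per spot, and 2 for inner nuclear against photoreceptor with 10 marker UMIs. For ganglion against photoreceptor it was 1 with total UMIs, the highest marker class or 10 marker UMIs. With the highest marker class it was 1 for pigmented against photoreceptor, 2 for fibrous against photoreceptor, 0 for fibrous against pigmented and 1 for fibrous against muscle. It was 1 for C1q-led against photoreceptor with filterByExpr or without the spot richest in Wif1, and 2 for the pigmented clusters with DESeq2. The number called among all genes also moved in many of these settings, as the next paragraph gives. These member counts are therefore not read as a result about the members alone.

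Leaving out 1 frame, the genes called were 192 to 287 for ganglion against inner nuclear (389 with all frames), 402 to 902 for inner nuclear against photoreceptor (1034), 1452 to 1789 for ganglion against photoreceptor (2309) and 751 to 1191 for pigmented against photoreceptor (1447). They were 22 to 99 for fibrous against photoreceptor (115), 126 to 360 for fibrous against pigmented (368), 1138 to 1517 for C1q-led against photoreceptor (2017) and 42 to 349 for muscle against photoreceptor (660). They were 17 to 44 for fibrous against muscle (71), 102 to 278 for the pigmented clusters (261) and 48 to 77 for Wif1-positive spots (138). With 10 marker UMIs per spot the counts were 233 for ganglion against inner nuclear, 1660 for inner nuclear against photoreceptor and 171 for fibrous against muscle. With filterByExpr they were 1456 for ganglion against photoreceptor, 134 for muscle against photoreceptor, 20 for fibrous against muscle and 81 for Wif1-positive spots. With the highest marker class they were 391 for pigmented, 436 for fibrous and 360 for muscle against photoreceptor, 16 for fibrous against pigmented and 22 for fibrous against muscle. With Leiden resolution 1 they were 47 for fibrous against photoreceptor and 127 for fibrous against muscle. DESeq2 gave 60 for muscle against photoreceptor, 14 for fibrous against muscle and 30 for Wif1-positive spots, and no filter gave 228, 24 and 158. For Wif1-positive spots, 34 were called with total UMIs, 30 with total UMIs and without the spot richest in Wif1, and among inner nuclear, ganglion and C1q-led spots 29 with TMM and 5 with total UMIs. With no replicate block the Wif1-positive count was 430, against 138 with frame as a block, and no member's call between regions changed.

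Scaling moved the split of calls. Higher and lower calls under total UMIs were 926 and 301 for inner nuclear, 1502 and 864 for ganglion, 854 and 479 for pigmented, 153 and 7 for fibrous, 1324 and 758 for C1q-led and 63 and 2 for muscle, each against photoreceptor. Under TMM they were 478 and 556, 1054 and 1255, 564 and 883, 61 and 54, 908 and 1109, and 35 and 625, in that order. For fibrous against muscle they were 2 and 24 under total UMIs, against 52 and 19 under TMM. Total UMIs thus gave 65 calls for muscle against photoreceptor and 26 for fibrous against muscle. Dkk3's mean share was 68.7% in the inner nuclear region with Leiden resolution 1 and 33.5% in the pigmented region with the highest marker class.

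Depth limits the scarce members most: Wif1 rests on 58 UMIs, Frzb on 32, Sfrp5 on 19 and Dkk2 on 2.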
